A study of Homo sapiens with 8 samples.

Results

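The genes described here are 10 enzymes that make, lengthen and desaturate fatty acids, of 60664 genes in the count tables. They are SCD, FADS1, FADS2, ELOVL1, ELOVL5, ELOVL6, HSD17B12, TECR, FASN and ACACA. They were named as a list, with SCD picked for its rise at the outer mitochondrial membrane (OMM), so the values at OMM are given as a description and nothing is concluded from a call there. The rule for SCD did not use the values in the nucleus (NLS), but the list was made with earlier results of these data known. All 10 genes passed the filter on low counts at both sites.

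Fatty acid synthesis starts in the cytosol. ACACA, acetyl-CoA carboxylase, makes malonyl-CoA, and FASN, fatty acid synthase, joins these units into palmitate. Membrane enzymes of the endoplasmic reticulum (ER) then act on the product. ELOVL1, ELOVL5 and ELOVL6 carry out the condensation step of elongation, HSD17B12 the first reduction and TECR the last. SCD, the delta-9 desaturase, places the first double bond into saturated chains, while FADS1 and FADS2, the delta-5 and delta-6 desaturases, act on polyunsaturated chains. The ER and the outer mitochondrial membrane touch at contact sites, and mRNAs of membrane proteins are commonly translated at the ER surface, whereas FASN and ACACA are made on cytosolic ribosomes.

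All libraries came from HEK293T cells, a transformed line of human embryonic kidney origin, carrying APEX2, a peroxidase engineered to attach biotin to RNA in its vicinity. The enzyme sat in the nucleus in the NLS groups and at the outer mitochondrial membrane in the OMM groups, in controls too. Per site, 2 libraries were labelled and 2 were controls without labelling (8 libraries), all of RNA recovered on streptavidin beads. The controls therefore give RNA recovered without labelling and not the RNA of whole cells. Neither separate cultures within a group nor a single clone is mentioned in the labels, so the p-values rest on a spread between libraries that may be technical. NLS libraries were made with a total RNA kit and OMM libraries with an mRNA kit, so site, kit and RNA selection cannot be told apart. Libraries are named below by the numbers in the column names of the deposited count tables.

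Library totals were 8039176 to 21096586 counts at NLS, where the labelled libraries were the smaller, and 34705126 to 52421161 counts at OMM. Libraries of a group differed more at OMM, with a biological coefficient of variation of 0.958 against 0.166 at NLS. Of 8 genes typical of HEK293T, all 8 lay above 3 counts in every NLS library and 5 (NEFM, NEFL, VIM, KRT8 and KRT18) in every OMM library. Their summed level was 624 to 692 CPM (counts relative to the library total, scaled with TMM factors) in NLS controls and 175 to 213 in labelled NLS libraries. It was 591 to 647 CPM in OMM controls and 566 to 602 in labelled OMM libraries. Of 16 markers of other cell types, 14 were at 0 in every OMM library, and COL1A1 was above 3 counts in every OMM library. PLIN1 and COL1A1 were the 2 above 3 counts in every NLS library. The 16 summed to at least 10.8 CPM in NLS controls, 9.34 to 11.0 CPM in labelled NLS libraries, at most 26.5 CPM in OMM controls and 1.57 to 4.52 CPM in labelled OMM libraries. The part that these shifts have in the results was not tested.

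The desaturases and elongases share a run of histidine codons that the other 4 enzymes lack, and these runs are shown because they divide the list. In desaturases, histidines of this kind are known to hold metal ions. The run searched was a histidine codon, 2 codons of any kind and 2 histidine codons, read in frame on the coding strand of 1 coding sequence per gene. It occurred in all 3 desaturases and all 3 elongases, and in none of HSD17B12, TECR, FASN and ACACA. Among 19529 protein-coding genes, 2.47% held it. Each run is printed from GENCODE 29 transcripts (GRCh38) with 3 codons on either side and with the histidine codons of the run in capitals, so that a histidine codon in a flank stays in lower case.
SCD, exon 4: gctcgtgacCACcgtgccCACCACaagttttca
SCD, exon 6: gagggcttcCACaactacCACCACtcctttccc
FADS1, exon 4: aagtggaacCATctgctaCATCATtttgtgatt
FADS1, exon 5: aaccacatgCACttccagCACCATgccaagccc
FADS2, exon 5: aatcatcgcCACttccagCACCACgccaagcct
ELOVL1, exon 6: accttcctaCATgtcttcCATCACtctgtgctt
ELOVL5, exon 5: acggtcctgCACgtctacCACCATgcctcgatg
ELOVL6, exon 4: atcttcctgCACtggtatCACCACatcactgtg
The SCD stretches lie on the plus strand at chr10:100354445-100354477 and chr10:100360736-100360768. Those of FADS1 lie on the minus strand at chr11:61810986-61811018 and chr11:61810826-61810858, and that of FADS2 on the plus strand at chr11:61848180-61848212. The elongase stretches are on the minus strand, at chr1:43364579-43364611 for ELOVL1, chr6:53275136-53275168 for ELOVL5 and chr4:110051692-110051724 for ELOVL6. The second FADS1 stretch and the FADS2 stretch both read CACttccagCAC in their middle, while the first FADS1 stretch uses CAT for each histidine.

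The genes lie on 7 chromosomes, and FADS1, FADS2 and HSD17B12 share chromosome 11. SCD (ENSG00000099194) spans chr10:100347124-100364834 on the plus strand, with 5.36 kb of exon. FASN (ENSG00000169710) spans chr17:82078333-82098332 and ACACA (ENSG00000278540) chr17:37084988-37406818, both on the minus strand, with 9.36 kb and 13.01 kb of exon. FADS1 and FADS2 lie on opposite strands and overlap by 490 exonic bases, 4.79% of the FADS1 exons and 4.44% of the FADS2 exons. TECR overlaps DNAJB1, on the other strand, by 211 bases, and HSD17B12 shares 490 bases with the transcript AC068205.2 on its own strand. HSD17B12 also overlaps AC087521.2 by 948 bases, 12.09% of its exons, and AC087521.4 by 289 bases, both on the other strand. The strand setting of the counting is not given in the sources used here, so reads in these stretches are uncertain.

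In the nucleus, 9 of the 10 mRNAs fell in the labelled libraries, and ACACA was the exception. SCD was 3.53-fold lower, ELOVL1 2.55-fold and ELOVL5 2.46-fold. FASN, HSD17B12, FADS2 and TECR were 1.88-fold to 1.98-fold lower and ELOVL6 1.65-fold, with the smallest fall in FADS1. Calls are at an adjusted p under 0.05 in edgeR's quasi-likelihood test with Benjamini-Hochberg adjustment over all 20858 genes tested. By that rule 28.5% of all genes tested were lower and 28.8% higher, and of protein-coding genes 39.8% were lower and 19.4% higher, so a lower call was common at this site. At an unadjusted p under 0.05 the 10 genes again gave 9 lower and 0 higher, against 30.4% and 32.2% of all genes. Both labelled libraries lay below both controls for 9 and above for 1, against 37.7% and 45.1% of all genes and 50.6% and 31.3% of protein-coding genes. The authors' deposited table also has 9 of the 10 lower and 0 higher, against 20.2% and 22.1% of its genes. The median log2 fold change was -0.98 for the 10 genes and -0.26 for protein-coding genes. All values are shares of a library of RNA recovered on beads. A smaller share and less RNA recovered cannot be told apart, and RNA per cell was not measured.

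Among the desaturases at NLS, SCD was at 1249 and 1198 CPM in control libraries 1 and 3 and at 365 and 328 CPM in labelled libraries 1 and 3. Both labelled libraries lay far below both controls. The log2 fold change of SCD was -1.82 ± 0.11 (SE, n = 2 against 2; edgeR adjusted p = 1.82e-05), lower than that of all but 3.50% of the genes tested. FADS1 was at 89.6 and 72.2 CPM in controls and 51.5 and 49.8 CPM in labelled libraries, a log2 fold change of -0.67 ± 0.13 (edgeR adjusted p = 0.00354). FADS2, its neighbour on the chromosome, was at 50.4 and 55.9 CPM in controls and 29.1 and 24.8 CPM in labelled libraries, a log2 fold change of -0.98 ± 0.14 (edgeR adjusted p = 7.69e-04). For all 3 desaturases the groups did not overlap.

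The elongases fell too. ELOVL5, which lengthens polyunsaturated chains, was at 203 and 183 CPM in NLS controls and 75.5 and 81.5 CPM in labelled libraries (log2 fold change -1.30 ± 0.10, edgeR adjusted p = 3.98e-05). ELOVL1, which makes very long saturated chains, was at 21.4 and 22.3 CPM in controls and 10.5 and 6.54 CPM in labelled libraries (-1.35 ± 0.25, edgeR adjusted p = 0.00269). It had the lowest CPM of the 10 here, not corrected for length, and its labelled libraries were the farthest apart on a log scale. ELOVL6, which lengthens palmitate to stearate, was at 49.4 and 49.2 CPM in controls and 28.4 and 31.4 CPM in labelled libraries (-0.73 ± 0.13, edgeR adjusted p = 0.00227). The reductases of the elongation cycle moved alike: HSD17B12 was at 124 and 142 CPM in controls and 63.1 and 71.3 CPM in labelled libraries, a log2 fold change of -0.99 ± 0.12 (edgeR adjusted p = 2.61e-04). TECR went from 65.9 and 71.4 CPM to 36.7 and 36.1 CPM, a log2 fold change of -0.91 ± 0.12 (edgeR adjusted p = 3.97e-04).

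The cytosolic enzymes parted at NLS. FASN, at 911 and 948 CPM in controls, was at 549.6 and 389 CPM in labelled libraries, a log2 fold change of -0.99 ± 0.16 (edgeR adjusted p = 0.00116). ACACA was at 166 and 167 CPM in controls and 176 and 179 CPM in labelled libraries, a log2 fold change of 0.09 ± 0.09 (edgeR adjusted p = 0.388). The fold change of FASN lay among those of the ER membrane enzymes, which ran from -1.82 to -0.67, while that of ACACA lay outside that range. The ACACA value depends on the scaling: it was 0.61 (edgeR adjusted p = 8.10e-04) with library size alone, which raised the median of all genes from 0.14 to 0.66, and -0.40 (edgeR adjusted p = 0.00512) once the trend with exonic length was removed. With library size alone FADS1 (-0.16, edgeR adjusted p = 0.356) and ELOVL6 (-0.21, edgeR adjusted p = 0.215) were no longer called, which left 7 of 10 lower.

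**Figure D1:**
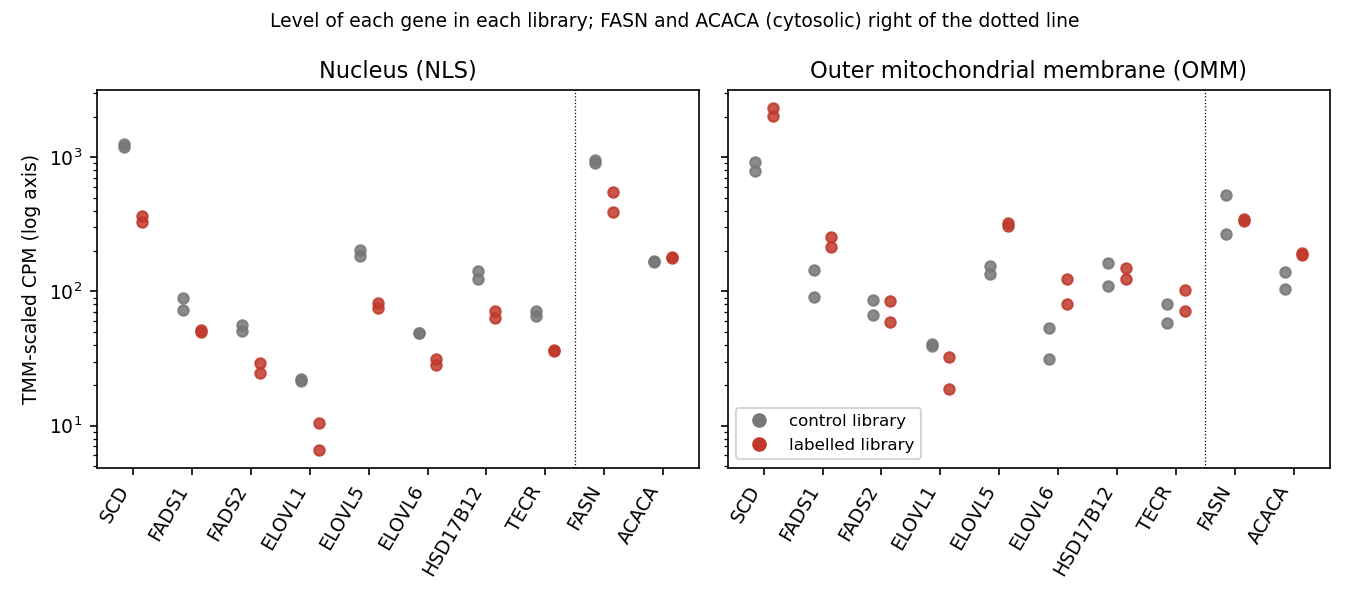
Level of each of the 10 genes in each library, as TMM-scaled CPM on a log axis, with 2 control (grey) and 2 labelled (red) libraries per gene at NLS (left) and OMM (right). At NLS labelled points lie below control points for 9 genes, ACACA excepted; at OMM they lie above for 5, below for ELOVL1 and overlap for 4.

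At OMM the labelled libraries lay above both controls for SCD, FADS1, ELOVL5, ELOVL6 and the cytosolic ACACA. They lay below both controls for ELOVL1, and the groups overlapped for FADS2, HSD17B12, TECR and FASN. Over all genes tested, labelled libraries were both above the controls for 21.3% and both below for 22.5% (protein-coding genes 22.7% and 21.9%). For description only, edgeR called SCD alone of the 10 higher (background 0.139% higher) and none lower (background 0.0554%), with 5 higher and 0 lower at an unadjusted p under 0.05 (background 5.94% and 4.62%). Among protein-coding genes 0.160% were called higher and 0.0480% lower. In the authors' deposited table the same 5 genes whose groups lay apart upward were called higher (background 6.53%) and 0 lower (background 5.70%). SCD was chosen on this contrast and the other members were listed with it known, so the choice can fix these counts and nothing is read from them.

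SCD was at 784 and 912 CPM in OMM control libraries 3 and 4 and at 2335 and 2007 CPM in labelled libraries 2 and 3, a log2 fold change of 1.36 ± 0.18. Its share of all counts went from 0.0732% and 0.0919% in controls to 0.236% and 0.210% in labelled libraries. ELOVL6 was at 53.0 and 31.5 CPM in controls and 123 and 80.4 CPM in labelled libraries, a log2 fold change of 1.27 ± 0.40. Its libraries differed within each group, yet the lower labelled one stood above the higher control. ELOVL5 was at 154 and 135 CPM in controls and 321 and 307 CPM in labelled libraries, a log2 fold change of 1.12 ± 0.22. FADS1 was at 90.4 and 144 CPM in controls and 254 and 215 CPM in labelled libraries, a log2 fold change of 1.00 ± 0.29. With both labelled libraries above both controls, leaving out 1 library could hardly change the sign of these 4, so only the size is given. It ran from 1.25 to 1.48 for SCD and 0.93 to 1.69 for ELOVL6. For ELOVL5 it was 1.03 to 1.21 and for FADS1 0.70 to 1.38.

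The other ER membrane genes did not share that shift. FADS2 was at 66.9 and 86.1 CPM in OMM controls and 84.4 and 58.7 CPM in labelled libraries, a log2 fold change of -0.10 ± 0.35, beside 1.00 for FADS1. HSD17B12 was at 109.9 and 164 CPM in controls and 124 and 149 CPM in labelled libraries, with both labelled values between the controls and a log2 fold change of -0.01 ± 0.29. TECR was at 58.2 and 80.9 CPM in controls and 102 and 71.5 CPM in labelled libraries, a log2 fold change of 0.32 ± 0.35. ELOVL1 was at 39.2 and 40.6 CPM in controls and 18.7 and 32.4 CPM in labelled libraries, a log2 fold change of -0.64 ± 0.49. The elongases thus lay on both sides of 0 at OMM, ELOVL5 and ELOVL6 above and ELOVL1 below.

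The cytosolic pair also lay on different sides at OMM. ACACA was at 105 and 139 CPM in controls and 193 and 188 CPM in labelled libraries, a log2 fold change of 0.64 ± 0.26. FASN was at 269 and 523 CPM in controls and 335 and 345 CPM in labelled libraries, a log2 fold change of -0.22 ± 0.30. Its controls were the farthest apart of the 10 genes, and the labelled libraries lay between them. Without control library 4 the FASN value was 0.34 and without control library 3 it was -0.62.

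**Figure D2:**
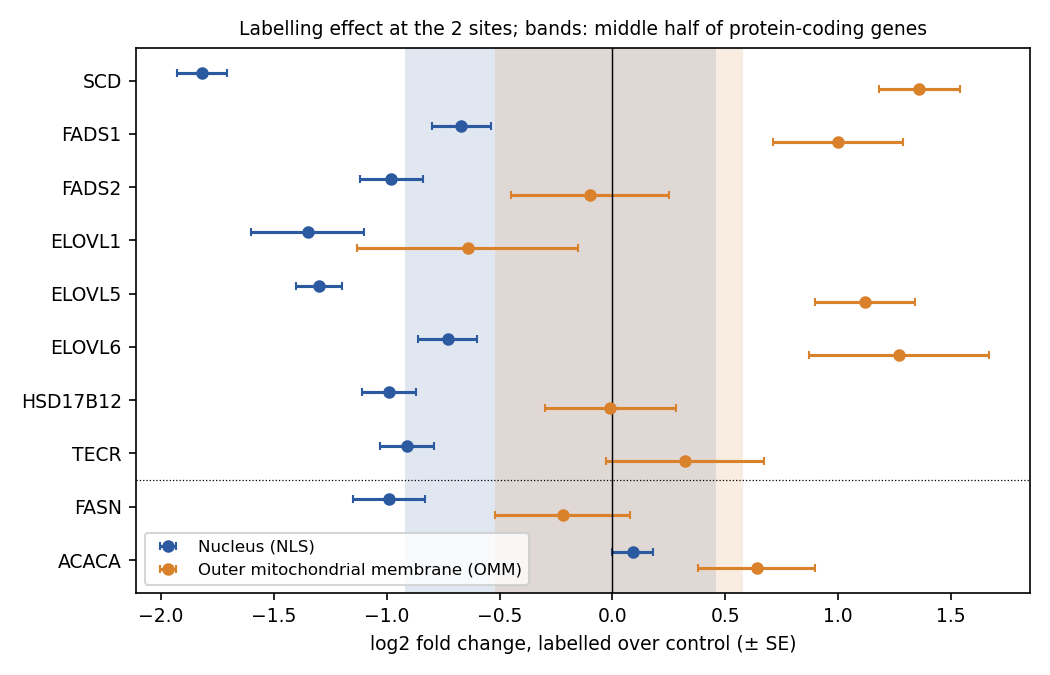
Log2 fold change of labelled over control at NLS (blue) and OMM (orange) for each gene, with bars of 1 SE; shaded bands are the middle 50% of protein-coding genes at each site. SCD has the lowest value at NLS (-1.82) and the highest at OMM (1.36), and the OMM values of ER membrane enzymes spread from -0.64 to 1.36.

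The ER membrane enzymes were set against the cytosolic ones library by library, as a description. The mean log2 CPM of the 8 ER membrane genes minus that of FASN and ACACA was -1.96 and -1.99 in NLS controls and -2.70 and -2.54 in labelled NLS libraries, which do not overlap. At OMM it was -0.75 and -1.26 in controls and -0.65 and -0.79 in labelled libraries, which overlap. Without SCD, which was chosen for its OMM value, it was -1.18 and -1.69 in OMM controls and -1.20 and -1.33 in labelled OMM libraries, which overlap too. At NLS without SCD it was -2.48 and -2.50 in controls and -3.11 and -2.95 in labelled libraries. Whether the sites differ in this measure was not tested. Each cytosolic gene gave another picture. Against FASN alone the NLS groups overlapped, at -3.19 and -3.25 in controls and -3.52 and -3.10 in labelled libraries. At OMM labelled libraries, at -1.05 and -1.23, lay above controls, at -1.43 and -2.21. That OMM separation includes SCD, which was chosen on this contrast, and FASN was at 269 and 523 CPM in the OMM controls. A version against FASN without SCD was not made. Against ACACA alone the NLS values were -0.74 in both controls and -1.88 and -1.98 in labelled libraries, and the OMM groups overlapped. Thus in these libraries neither site set the 8 genes apart from both cytosolic genes.

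**Figure D3:**
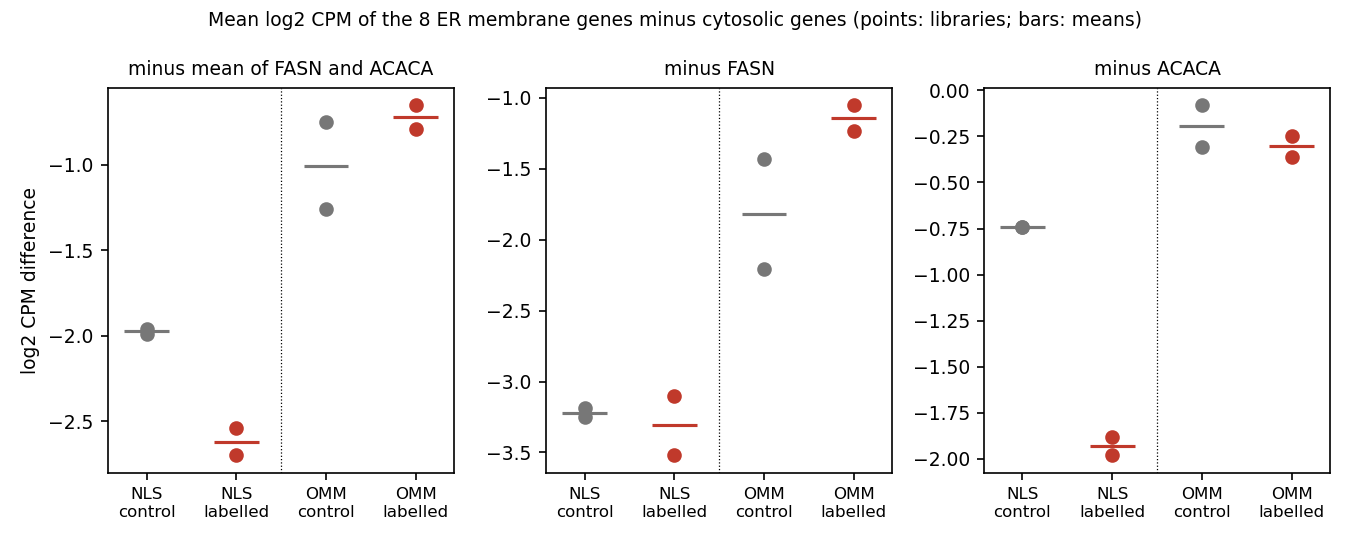
Mean log2 CPM of the 8 ER membrane genes minus that of FASN and ACACA together (left), FASN alone (middle) and ACACA alone (right), 1 point per library with bars at group means; the vertical axes differ between panels. Against ACACA the NLS labelled points lie at -1.88 and -1.98 and the controls at -0.74; against FASN the NLS groups overlap.

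The difference between sites was widest for SCD. Its log2 fold change at OMM minus that at NLS was 3.18 ± 0.21, above the same difference in 97.5% of 14243 genes tested at both sites, whose median was 0.38. ELOVL5 followed at 2.42 ± 0.24, ELOVL6 at 1.99 ± 0.42 and FADS1 at 1.67 ± 0.32. In these 4 genes both labelled libraries lay below both controls at NLS and above both at OMM, as they did for 14.4% of 12397 protein-coding genes tested at both sites. SCD is among the 4 by choice on the OMM contrast. TECR was at 1.24, HSD17B12 at 0.98, FADS2 at 0.88, FASN at 0.77 and ELOVL1 at 0.70. ACACA had the smallest difference of the 10, 0.55 ± 0.27, above 54.7% of genes. These differences were not tested, since the OMM contrast chose SCD, and site and library kit cannot be told apart.

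Levels between genes were compared as CPM per kilobase of exon in the control libraries. At NLS the order was SCD at 228 ± 6.73 (SD, n = 2), FASN at 99.3 ± 2.77 and ELOVL5 at 50.7 ± 3.71, then HSD17B12 at 17.0, ACACA at 12.8, TECR at 11.6, ELOVL1 at 8.72, FADS1 at 7.91, ELOVL6 at 6.76 and FADS2 at 4.82 CPM per kb. Of the neighbours in that order, only ELOVL1 and FADS1 had overlapping control values. At OMM, SCD led again at 158 ± 16.9 CPM per kb, above FASN at 42.3 ± 19.2 and ELOVL5 at 38.0 ± 3.56, whose controls overlapped. The rest lay from 17.5 for HSD17B12 to 5.79 for ELOVL6. SCD stood above 99.0% of protein-coding genes per length at NLS and 98.0% at OMM, while FADS2 stood above 43.0% and 54.9%. In labelled libraries SCD was at 68.0 and 61.2 CPM per kb at NLS and at 436 and 374 at OMM.

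Codons with T in the second place stand for phenylalanine, leucine, isoleucine, methionine and valine, the hydrophobic residues that membrane spans are rich in. They made up 29.2% to 38.7% of the codons of the 8 ER membrane genes, 29.1% of those of FASN and 30.8% of those of ACACA, beside a median of 26.6% over 19529 protein-coding genes. SCD was the lowest of the 8 at 29.2% and ELOVL1 the highest at 38.7%. The densest run of 20 codons is shown for 4 genes, with these codons in capitals, to set FASN beside membrane enzymes. It is a maximum over all positions, so it can rise with length, and FASN has 2511 codons against 359 in SCD.
SCD, codons 74 to 93: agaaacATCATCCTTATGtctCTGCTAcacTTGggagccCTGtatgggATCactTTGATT
FADS1, codons 179 to 198: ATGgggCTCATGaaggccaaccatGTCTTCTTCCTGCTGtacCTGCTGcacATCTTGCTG
ELOVL6, codons 232 to 251: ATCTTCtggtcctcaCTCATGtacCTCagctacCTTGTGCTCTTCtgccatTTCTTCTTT
FASN, codons 2092 to 2111: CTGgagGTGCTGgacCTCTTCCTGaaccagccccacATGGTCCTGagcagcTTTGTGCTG
The SCD run lies at chr10:100348256-100348315 (plus strand), that of FADS1 at chr11:61812561-61812620, that of ELOVL6 at chr4:110051383-110051442 and that of FASN at chr17:82081674-82081733 (all minus strand). They hold 11, 13, 12 and 12 such codons, beside a median of 10 for the densest run of all protein-coding genes. The densest run of ACACA, not shown, holds 10, while those of the 8 ER membrane genes hold 11 to 13.

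Over all protein-coding genes tested, the median log2 fold change at OMM was -0.01 for genes with under 25% of these codons and 0.38 for the 601 genes with over 35%. At NLS the same medians were -0.20 and -0.40. Among the 10 genes at OMM, ELOVL5 (35.1%) and ELOVL6 (37.0%) lay above 1, but ELOVL1 (38.7%) had the lowest value. SCD (29.2%) had the highest value, but it was picked for its rise at OMM, so nothing is read from its place. Coding genes are not independent replicates, and these medians carry no test.

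**Figure D4:**
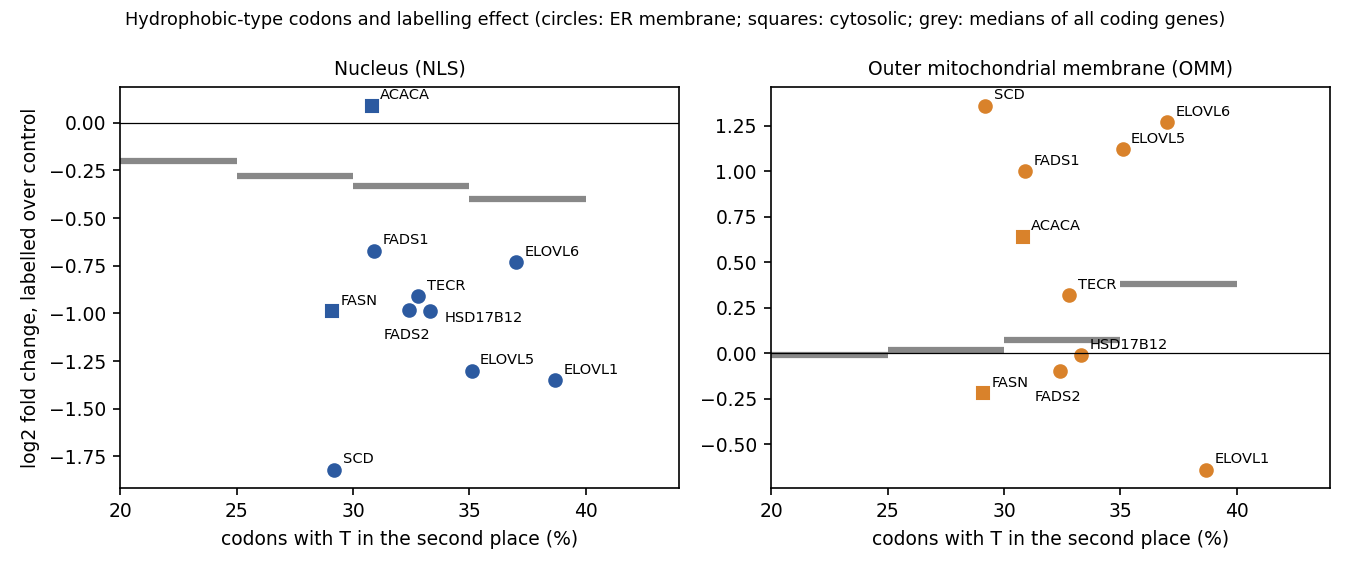
Share of codons with T in the second place (horizontal, percent) against the log2 fold change of labelled over control (vertical) at NLS (left) and OMM (right); circles are ER membrane genes, squares FASN and ACACA, grey bars the medians of all coding genes in each range of the share. At OMM, SCD, which was picked for its rise there, lies at the top with 29.2% and ELOVL1 at the bottom with 38.7%.

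The wider pathway was followed in 6 lists of 68 genes. Of 60 tested at NLS, 30 fell and 12 rose in edgeR's test, beside 39.8% of protein-coding genes lower and 19.4% higher (28.5% and 28.8% of all genes tested). The authors' deposited table has 26 lower and 11 higher. At OMM edgeR called 0 of 57, with 6 higher and 0 lower at an unadjusted p under 0.05 (background 5.94% and 4.62%). The authors' deposited table has 4 higher and 2 lower (background 6.53% and 5.70%). Labelled libraries at OMM lay above both controls for 20 of the 57 and below for 16, beside 22.7% and 21.9% of protein-coding genes.

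Of the other elongases and the dehydratases of the same ER cycle, 5 of 6 tested fell at NLS and 0 rose. Of protein-coding genes 39.8% were called lower there and 19.4% higher. At an unadjusted p under 0.05 the 6 genes again gave 5 lower and 0 higher, and their median log2 fold change was -0.94. The authors' deposited table has 4 of them lower, without ELOVL2. HACD2, a dehydratase, went from 112 and 108 CPM in controls to 29.9 and 39.2 CPM (-1.68 ± 0.14, edgeR adjusted p = 5.35e-05). HACD1, whose product is known from muscle, was at 5.43 and 15.3 CPM in controls and 10.4 and 11.8 CPM in labelled libraries (0.10 ± 0.44, edgeR adjusted p = 0.858). At OMM 5 of the 6 lay above both controls: ELOVL2, ELOVL4, ELOVL7, HACD2 and HACD3. That pattern held for 22.7% of protein-coding genes, and a list of 6 genes named for their role carries no test here. EdgeR called 0 of the 6 at OMM, with 2 higher and 0 lower at an unadjusted p under 0.05 (background 5.94% and 4.62%). The authors' deposited table has 1 higher, HACD3, and 0 lower (background 6.53% and 5.70%). ELOVL4, an elongase of very long chains, was at 30.7 and 14.8 CPM in OMM controls and 44.7 and 56.6 CPM in labelled libraries (1.15 ± 0.51). HACD3, with the highest CPM of the list, was at 338 and 283 CPM in controls and 669 and 516 CPM in labelled libraries (0.93 ± 0.21).

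Of 9 tested genes that supply cytosolic synthesis, 6 fell at NLS and 2 rose, beside 39.8% and 19.4% of protein-coding genes. SLC25A1, the mitochondrial citrate carrier, went from 77.3 and 70.3 CPM to 27.6 and 24.2 CPM (-1.51 ± 0.13, edgeR adjusted p = 6.14e-05). ACACB, the carboxylase whose product sits on mitochondria, rose from 18.3 and 29.2 CPM to 63.2 and 60.8 CPM (1.38 ± 0.21, edgeR adjusted p = 8.71e-04), where ACACA was at 0.09. None of the 9 lay above both controls at OMM and 5 lay below, beside 22.7% and 21.9% of protein-coding genes. The highest value there was that of AACS, an acetoacetyl-CoA synthetase, at 0.45 ± 0.95, and the lowest that of MID1IP1, a protein that activates ACACA, at -0.76 ± 0.39.

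Mitochondrial fatty acid synthesis, a separate pathway inside the organelle, gave 4 of 9 higher and 3 lower at NLS in edgeR's test. The authors' deposited table has the same number higher but 1 lower, NDUFAB1. In edgeR's test 19.4% of protein-coding genes were higher and 39.8% lower. ACSF3, which makes malonyl-CoA in mitochondria, rose from a mean of 26.7 ± 2.37 CPM (SD, n = 2) in controls to 88.3 ± 10.0 CPM in labelled libraries (1.72 ± 0.14, edgeR adjusted p = 3.98e-05). NDUFAB1, the acyl carrier protein, fell from 133 and 146 CPM to 43.7 and 43.4 CPM (-1.68 ± 0.11, edgeR adjusted p = 2.10e-05). At OMM the list had a median log2 fold change of -0.53 over 8 genes. Of these, 2 lay above both controls and 3 below, beside 22.7% and 21.9% of protein-coding genes. CBR4, a reductase subunit, was the highest of those above the naming level, at 38.0 and 26.9 CPM in controls and 63.4 and 49.7 CPM in labelled libraries (0.80 ± 0.43). MECR, the last reductase, was the lowest, at 38.0 and 38.2 CPM in controls and 14.7 and 27.0 CPM in labelled libraries (-0.87 ± 0.52).

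Electron donors and other desaturases gave 3 lower and 1 higher of 8 tested at NLS, beside 39.8% and 19.4% of protein-coding genes. CYB5R3, the reductase that feeds cytochrome b5 for desaturation, fell from 136 and 128 CPM to 59.3 and 49.8 CPM (-1.27 ± 0.12, edgeR adjusted p = 7.58e-05). CYB5R1, a related reductase, rose from 20.3 and 26.2 CPM to 33.8 and 32.5 CPM (0.51 ± 0.17, edgeR adjusted p = 0.0346), a call that the authors' deposited table does not make. Of 7 tested at OMM, 1 lay above both controls and 2 below, beside 22.7% and 21.9% of protein-coding genes. The cytochromes themselves lay apart there. CYB5B, the form of the outer mitochondrial membrane, was at 175 and 143 CPM in controls and 266 and 211 CPM in labelled libraries (0.59 ± 0.24). CYB5A, the ER form, was at 52.6 and 34.3 CPM in controls and 4.91 and 31.3 CPM in labelled libraries (-1.26 ± 0.80), with labelled library 2 far below the others.

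Acyl-CoA synthetases, which activate fatty acids, gave 5 lower and 2 higher of 11 tested at NLS, beside 39.8% and 19.4% of protein-coding genes. SLC27A2 fell from 17.9 and 14.4 CPM to 6.62 and 7.37 CPM (-1.21 ± 0.24, edgeR adjusted p = 0.00357), and SLC27A5 rose from 3.03 and 10.0 CPM to 16.2 and 18.5 CPM (1.41 ± 0.47, edgeR adjusted p = 0.0334). Of 10 tested at OMM, 4 lay above both controls and 2 below, beside 22.7% and 21.9% of protein-coding genes. There SLC27A4 was at 71.8 and 72.7 CPM in controls and 137 and 92.7 CPM in labelled libraries. SLC27A2 was at 10.5 and 27.3 CPM in OMM controls and 3.70 and 15.1 CPM in labelled libraries.

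Regulators gave 8 lower and 3 higher of 17 tested at NLS, beside 39.8% and 19.4% of protein-coding genes. INSIG1, the ER protein that holds back the lipid regulator SREBP, fell from 182 and 176 CPM to 51.3 and 63.4 CPM (-1.64 ± 0.12, edgeR adjusted p = 3.06e-05). MLXIPL, a carbohydrate-responsive transcription factor, rose from 9.31 and 7.83 CPM to 28.1 and 27.5 CPM (1.70 ± 0.19, edgeR adjusted p = 1.90e-04). Of the 17 at OMM, 8 lay above both controls and 4 below, beside 22.7% and 21.9% of protein-coding genes. There MBTPS2, a membrane protease that releases SREBP, was at 44.5 and 33.1 CPM in controls and 119 and 140.1 CPM in labelled libraries (1.74 ± 0.33). INSIG2 was at 17.5 and 34.9 CPM in controls and 7.35 and 21.1 CPM in labelled libraries (-0.88 ± 0.73).

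**Figure D5:**
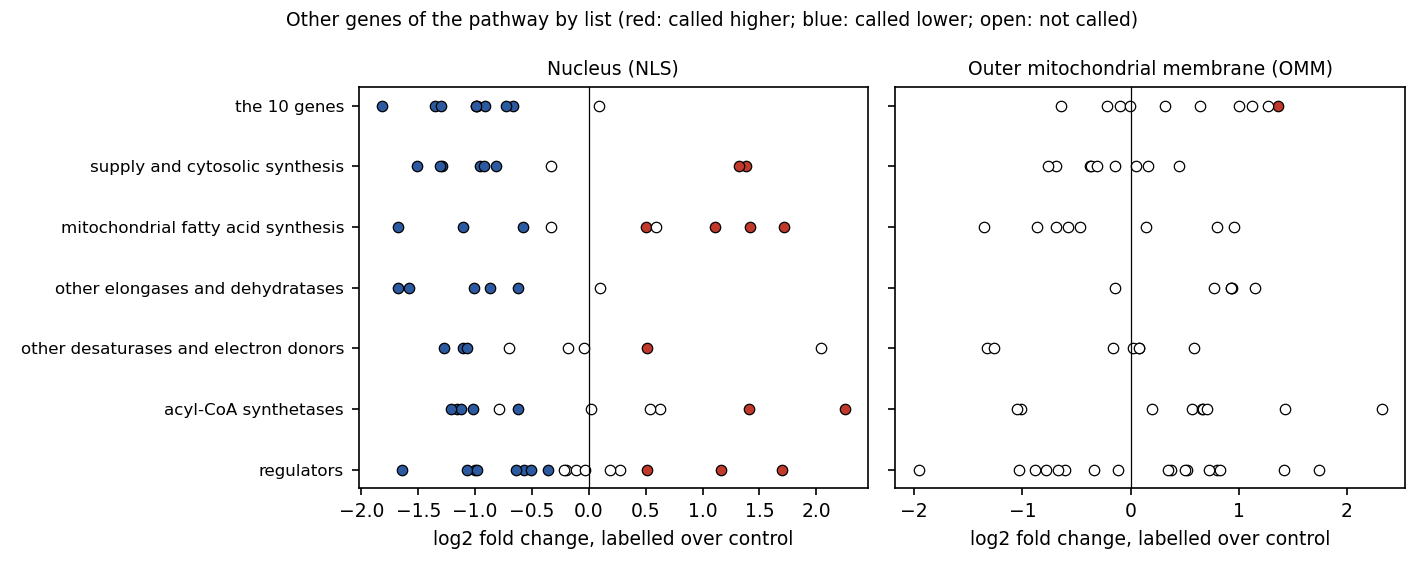
Log2 fold change of labelled over control at NLS (left) and OMM (right) for the 10 genes and the 6 lists, 1 point per gene tested; red and blue mark genes called higher and lower by edgeR and open points genes not called. ACSL6 is left out at OMM, where its labelled libraries were at or under 3 counts.

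The genes most like SCD over the 8 libraries were found by the Euclidean distance of log2 CPM, each gene centred on the control mean of its site, among 8062 genes whose mean log2 CPM was 4 or more at both sites. The distance takes in the OMM libraries, on which SCD was chosen. Genes near SCD therefore rise there by construction, and nothing is read from their roles. CYP51A1, an ER enzyme of cholesterol synthesis, was nearest at a distance of 0.28, with log2 fold changes of -1.98 at NLS and 1.40 at OMM. Next were ENSG00000285772 and SURF4, an ER cargo receptor, at 0.38 each, then SUSD5 and GANAB, a glucosidase of the ER, at 0.48 each, beside a median distance of 2.87. Of the other 9 genes ELOVL5 was nearest, at 0.90, with 69 other genes nearer. ELOVL6 and FADS1 followed at 1.74 each, TECR at 1.99, HSD17B12 at 2.30, FADS2 at 2.41, FASN at 2.49, ACACA at 2.89 and ELOVL1 at 3.07. ACACA and ELOVL1 were thus farther from SCD than the median gene.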

How the data were processed

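The authors deposited read counts per gene, and the submitters' processing notes name the tools STAR, HTSeq, Trimmomatic, DESeq2, SAMtools and bedtools and the builds hg38 and GRCh38.p13. They also deposited a log2 fold change and a p-value per gene. Applied here to those counts, DESeq2 1.42.0 returned fold changes within 0.01 of theirs and adjusted p-values within 1% of theirs for 100.0% of genes. The series text gives Proteinase K (NLS) and TRIzol (OMM) as release steps, while the labels' protocols name an RNeasy kit. Columns were assigned to groups by name, and 4 count columns and 2 comparison columns matching no sample were not used.

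Counts were tested in R 4.3.3 with edgeR 4.0.16 (robust quasi-likelihood, TMM scaling, filterByExpr with a minimum count of 10, prior count 0.125, two-sided, Benjamini-Hochberg, threshold 0.05), each site apart. The SE was taken as the absolute log2 fold change over the square root of the F statistic. A floor of 3 counts, at NLS 0.171 to 0.311 CPM and at OMM 0.0567 to 0.0847 CPM, covers counting error only, since reads are not independent molecules. No replicates agreed within sampling noise. Exons, coordinates and coding sequences came from GENCODE 29 (GRCh38), which held 58396 of the 60664 identifiers. Codons were counted in place of the protein features first planned, since no protein sequences were used here.

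All 10 genes are named. In each pathway list the highest and lowest log2 fold changes among genes whose mean log2 CPM was 3 or more are named, and HACD3, ELOVL2 and ELOVL7 were added after their values were seen. The members and lists were chosen with earlier results of these data known. Alternatives were other scalings, filters, DESeq2, leaving out each library, removing trends with GC content or exonic length and, added after the data were seen, a block on the column numbers at NLS.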

Additional observations from a re-analysis of the deposited data

Results flagged for a closer look

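SCD, ELOVL5, ELOVL6 and FADS1 had both labelled libraries below both controls at NLS and both above at OMM, which 4 of the 10 genes did, beside 14.4% of protein-coding genes tested at both sites. SCD is among them by choice, since it was picked on the OMM contrast. The log2 fold change at OMM minus that at NLS was 3.18 for SCD, 2.42 for ELOVL5, 1.99 for ELOVL6 and 1.67 for FADS1. The difference itself was not tested, and site, library kit and RNA selection cannot be told apart.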

How the results depend on the processing

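The count columns at NLS share the numbers 1 and 3 between arms, which differ from those in the sample titles, so a replicate block on them was added after the data were seen. It gave 9 genes lower and 0 higher in edgeR (9 and 0 at an unadjusted p under 0.05), as without the block, and 5075 higher and 5696 lower of all genes. The deviations of libraries with the same number had a correlation of -0.03 over 20858 genes. With 2 pairs, and genes that share libraries, this cannot show whether they share more than a number. At OMM no paired analysis was possible because the arms share only the number 3. At NLS 7 to 10 of the 10 genes were called lower over all settings and 9 whichever library was left out. With library size alone 1 gene, ACACA, was called higher at NLS, and its log2 fold change turned to -0.40 without the trend of exonic length. At OMM the number called higher was 1 in the main edgeR fit, 4 with no filter, 5 with DESeq2, and 0 without the trend of GC content or of exonic length (5 and 4 at an unadjusted p under 0.05). Leaving out 1 library gave 2 to 3: 3 without control 3 or labelled 3, and 2 without control 4 or labelled 2. The number of all genes called higher at OMM moved from 20 to 321 with no filter and 1000 with DESeq2. The OMM log2 fold changes of 3 genes had no stable sign. FADS2 (-0.10) was at 0.10 without control 4, 0.15 without labelled 3 and 0.16 without the GC trend. HSD17B12 (-0.01) was at 0.32 without control 4, 0.13 without labelled 2, 0.07 with library size alone and 0.01 with no filter. FASN (-0.22) was at 0.34 without control 4 and 0.14 without the GC trend. With 2 libraries per group, precision at OMM was limited by the spread between libraries: 533 genes with a mean of at least 100 counts in the controls had 0 in 1 of them.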

Other observations

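Over the 10 genes, Spearman's correlation of the NLS log2 fold change with exonic length was 0.75, beside 0.28 over 13856 protein-coding genes tested. At OMM the log2 fold change ran with GC content at -0.62 over the 10 genes, beside -0.25 over 12490 protein-coding genes. SCD, chosen on the OMM contrast, is among the 10. Exonic length at OMM gave -0.12 beside 0.24, and GC content at NLS gave 0.10 beside 0.07. Gene span gave 0.54 beside 0.23 at NLS and 0.24 beside 0.25 at OMM. Points share libraries and are not independent, so no p is given. ACACA, the longest at 13.01 kb of exon, had the highest NLS value, and ELOVL1, the shortest at 2.51 kb, the second lowest after SCD.

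Near copies of the genes gathered few counts. The SCD pseudogene SCDP1 had 0 to 6 counts per library, and the TECR pseudogene TECRP1 had 2 to 17 in all libraries but labelled OMM library 2, where it had 69. DNAJB1, which overlaps TECR on the other strand, had a log2 fold change of -1.67 at NLS and 0.04 at OMM, beside -0.91 and 0.32 for TECR. AC068205.2, which overlaps HSD17B12 on the same strand, averaged 32.4 CPM at NLS and 50.1 CPM at OMM, beside 100.2 and 137 CPM for HSD17B12.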
